A study of Mus musculus with 21 samples.

Results

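The genes described here are markers of the blood vessels of the brain and of the blood inside them: endothelial genes, mural genes (pericytes and smooth muscle cells) and genes of red blood cells. They are a list of 36 gene symbols, each followed on the probe set with the highest mean among those annotated to it. Of the 36, 35 had a probe set, out of 18827 annotated genes or gene groups on the array, and they comprised 25 endothelial, 7 mural and 3 blood genes. *Ly6a*, a surface protein of endothelial and stem cells, had no probe set in the annotation used here. The list was drawn up by cell type and not by any measured value in these arrays, though with earlier results of the same data known. Of the 35, 27 passed the filter on dim probe sets (20 endothelial, 5 mural and 2 blood) and were tested among 12879 genes or gene groups.

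Total RNA from the mouse dentate gyrus, a region of the hippocampus, was measured on 21 arrays, 3 in each of 7 groups, in a study of mice whose transgene, kept off by doxycycline, makes extra NgR, the Nogo receptor coded by *Rtn4r*. Set 1 held bitransgenic mice given water after doxycycline was removed to switch the transgene on, bitransgenic mice kept on a doxycycline diet that holds it off, and monotransgenic mice on water after doxycycline removal. Experiment 2 held bitransgenic mice on water that had never met doxycycline and monotransgenic mice on water. A further set, called set 3 here, held arrays labelled only bitransgenic or monotransgenic, with no treatment given. The titles of set 1 write the bitransgenic arrays as pTRE/NgR and the monotransgenic ones as NgR, and the labels say that the monotransgenic mice of set 1 lack tTA, the transactivator that doxycycline holds off. The promoter that drives tTA, the age and the sex of the mice are not in the labels. They also do not say whether each array is a separate animal, so the p-values below reflect only how much these samples vary, which may be technical.

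Endothelial cells line the vessels of the brain and form the blood-brain barrier through tight junctions, nutrient transporters and efflux pumps. Pericytes and smooth muscle cells wrap the endothelium, support the barrier and set the width of the vessel. Haemoglobin transcripts in brain tissue come largely from red blood cells and their precursors left in the vessels, although neurons and glia have been reported to carry low levels.

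*Rtn4r*, the gene the transgene carries, had intensities of 254 to 1469 after doxycycline removal, 73.1 to 111 on the doxycycline diet and 63.8 to 98.4 in the monotransgenic arrays of set 1. It had 365 to 753 in bitransgenic and 113 to 185 in monotransgenic arrays of experiment 2, and 562 to 755 in bitransgenic and 85.9 to 133 in monotransgenic arrays of set 3. The log2 ratio of 3' over 5' signal for the beta-actin control probe sets, which grows as RNA degrades, was 4.84 to 6.45 in experiment 2 and 4.17 to 5.12 elsewhere. Within experiment 2 it was 5.10, 6.45 and 5.41 in bitransgenic and 5.97, 4.90 and 4.84 in monotransgenic arrays. The same ratio for the *Gapdh* control did not set experiment 2 apart, with 4.11 to 4.74 there and 3.95 to 4.80 elsewhere. *Xist*, an RNA of female cells, ran from 2361 to 4750 in experiment 2 and from 9.59 to 33.7 in the other sets. Set, sex-linked RNA and RNA quality therefore cannot be told apart where levels of experiment 2 are set beside those of the other sets, whereas each comparison within a set was made between arrays of that set.

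No vessel or blood gene passed an adjusted p of 0.05 (limma, adjusted over all 12879 features) in any of the 9 comparisons made. After doxycycline removal against the diet the share of all features that passed was 0.0311%, against the monotransgenic arrays it was 0.0699%, and on the diet against the monotransgenic arrays it was 0.0233%. For bitransgenic against monotransgenic arrays it was 0.0776% in experiment 2 and 0% in set 3, and for the mean over the 3 sets of transgene on against monotransgenic it was 0.0699%. The 3 tests of a difference between sets called 0% of the features. With so few calls anywhere, a count of 0 among 27 genes does not set the vessel genes apart from the rest of the array.

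At an unadjusted p under 0.05 a few of the 27 genes appeared in each comparison. There were 2 after doxycycline removal against the diet, where 5.01% of all features reached that level, and 2 against the monotransgenic arrays, where 7.76% did. The diet against the monotransgenic arrays gave 1 gene, against 3.81% of all features. Bitransgenic against monotransgenic arrays gave 3 genes in experiment 2, where 14.4% of all features did so, and 4 genes in set 3, where 4.15% did. The mean over the 3 sets gave 5 genes, against 11.7% of all features. Whether counts this small out of 27 differ from the shares of all features was not tested. The tests of differences between sets gave 1 gene for experiment 2 minus set 1, where 7.86% of all features did so, 2 for set 3 minus set 1, where 3.55% did, and 2 for experiment 2 minus set 3, where 8.15% did. On normalized values, the arrays of the groups compared did not overlap for 5, 7 and 0 genes in the 3 comparisons of set 1, in the order just given, for 1 gene in experiment 2 and for 4 in set 3. The shares of all features without overlap were 16.2%, 22.2% and 14.8% in set 1, 8.67% in experiment 2 and 13.5% in set 3.

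The median difference of the 27 genes was small in each comparison. It was 0.04 on the log2 scale after doxycycline removal against the diet, with -0.01 over all features, and -0.11 against the monotransgenic arrays, with -0.01 over all features. On the diet against the monotransgenic arrays it was -0.13. In bitransgenic against monotransgenic arrays it was -0.05 in experiment 2 and 0.10 in set 3, and over the 3 sets it was -0.01. Of the 27 genes, 10 had the same sign in all 3 sets of transgene on against monotransgenic (37.0%, with 29.5% of all features). *Itm2a*, *Slco1c1* and *Foxq1* were the 3 on the higher side, and *Cldn5*, *Abcb1a*, *Ly6c1*, *Ramp2*, *Nostrin*, *Sox18* and *Acta2* the 7 on the lower side. All differences here and below are on the scale of log2(intensity + 16) after quantile normalization, which understates the change of dim genes.

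**Figure D1:**
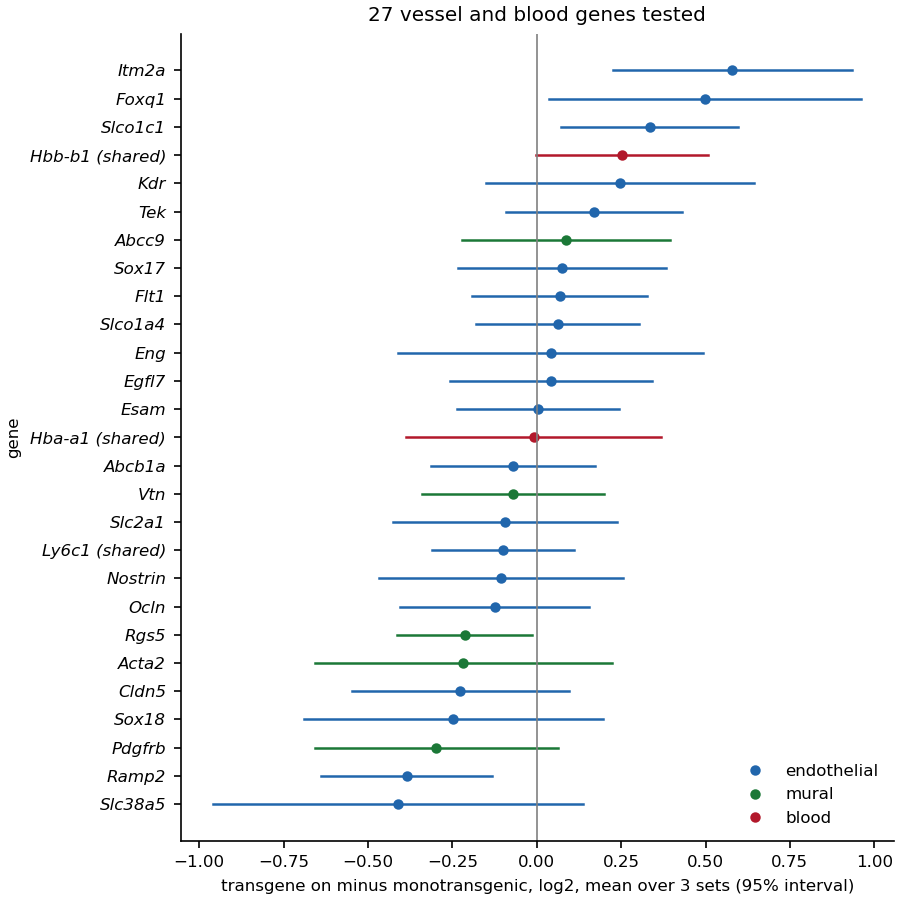
Difference of the 27 tested genes between arrays with the transgene on and monotransgenic arrays (horizontal axis, log2, mean of 3 sets), with 1 gene per line, the 95% interval as a bar and the cell class as colour. *Itm2a*, at 0.58, lies farthest above 0 and *Slc38a5*, at -0.41, farthest below it, and the intervals of all but *Itm2a*, *Foxq1*, *Slco1c1*, *Ramp2* and *Rgs5* include 0.

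The tissue showed signal for all 3 cell classes, but not on every defining probe set. The probe set of *Cldn5*, the main claudin of barrier tight junctions, ran from 22.4 to 88.8 with a median of 65.3. That of *Pecam1*, an adhesion molecule of all endothelium, had a median of 2.00 and a highest value of 14.2, so it carried little signal on any array. Probe sets bind with unequal strength, so a value places a gene only against itself on other arrays and not against another gene. The limit of the filter was a mean of log2 4.89, which is an intensity of 13.7. The 8 genes with a probe set under it were *Pecam1*, *Cdh5* (the adherens junction cadherin, median 13.9), *Tie1* (an angiopoietin co-receptor, median 0.623), *Vwf* (clotting factor von Willebrand factor), *Emcn* (endomucin), *Tagln* and *Myh11* (smooth muscle contractile genes) and *Alas2* (the erythroid enzyme of haem synthesis). Of these, *Myh11* reached 25.4 and *Alas2* 14.2 on their brightest arrays.

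**Figure D2:**
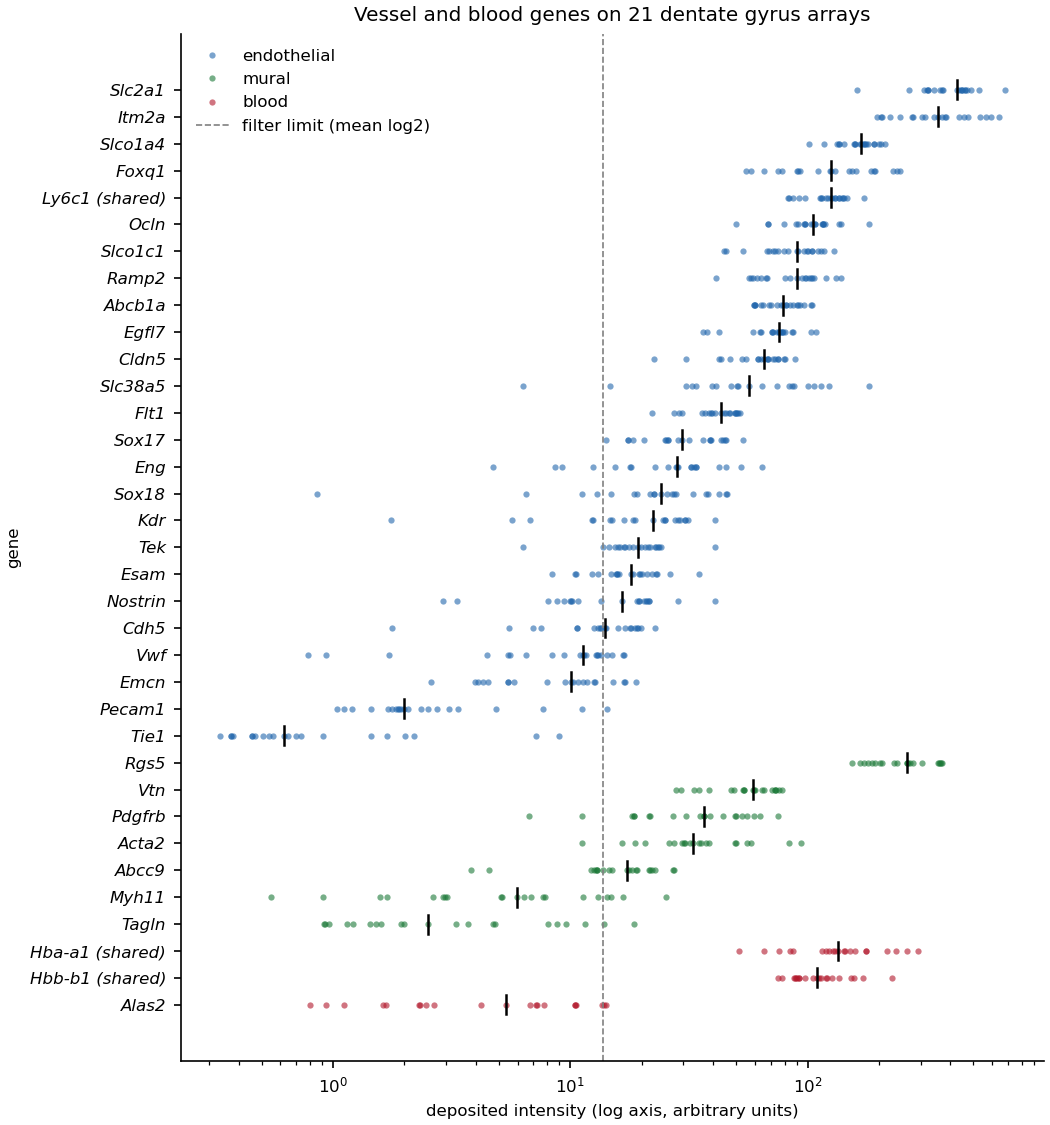
Deposited intensity (log axis, arbitrary units) of the 35 genes with a probe set on each of the 21 arrays, sorted by class, with the median as a black tick and the filter limit of 13.7 as a dashed line. *Slc2a1* (162 to 676) and *Itm2a* (196 to 638) sit well above the limit on every array, while *Pecam1*, *Tie1*, *Tagln* and *Alas2* stay at or below it on nearly all arrays.

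Among the junction and surface genes of the endothelium, none differed beyond the test. *Cldn5* had 79.7, 30.7 and 55.0 after doxycycline removal. In the same set it had 43.3, 42.5 and 68.0 on the diet and 47.1, 72.8 and 62.0 in the monotransgenic arrays. In experiment 2 it had 65.3, 52.8 and 22.4 in bitransgenic and 68.4, 88.8 and 67.7 in monotransgenic arrays, and in set 3 it had 63.9, 61.6 and 71.3 in bitransgenic and 75.4, 80.5 and 75.03 in monotransgenic arrays. The bitransgenic arrays lay below all monotransgenic ones in set 3 and, before normalization, in experiment 2, and those after removal overlapped the others in set 1. The difference over the 3 sets was -0.23 ± 0.15 (SE, 95% interval -0.55 to 0.09, adjusted p = 0.602). *Ocln* (occludin), *Esam* (an endothelial adhesion molecule) and *Ly6c1* (a surface protein of brain endothelium, on a probe set shared with *Ly6c2*) differed over the 3 sets by -0.12, 0.00 and -0.10.

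Of the endothelial receptors, *Ramp2* came nearest to the threshold. *Ramp2* codes for the partner protein that makes the calcitonin receptor-like receptor a receptor for adrenomedullin, a peptide that acts on vessels. It had 63.7, 67.1 and 57.9 after doxycycline removal, against 90.0, 98.8 and 120 on the diet and 139, 107 and 94.5 in the monotransgenic arrays. All 3 arrays after removal thus lay below all 6 others of set 1. In experiment 2 it had 61.4, 41.3 and 56.9 in bitransgenic and 58.7, 104 and 101 in monotransgenic arrays, and in set 3 97.8, 80.7 and 84.4 in bitransgenic and 104, 67.5 and 132 in monotransgenic arrays. In these sets the groups overlapped.

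The mean of *Ramp2* was 62.9 ± 4.64 after removal, 103 ± 15.2 on the diet and 113 ± 22.8 in the monotransgenic arrays (SD, n = 3 each). The difference after removal was -0.53 ± 0.21 (SE) against the diet (adjusted p = 0.846, limma) and -0.65 ± 0.21 against the monotransgenic arrays (adjusted p = 0.336, limma). These comparisons share the arrays after removal, and the diet and removal groups share their monotransgenic controls. Over the 3 sets the difference was -0.39 ± 0.12 (95% interval -0.64 to -0.13, adjusted p = 0.171), made of -0.65, -0.40 and -0.11 in set 1, experiment 2 and set 3. The other *Ramp2* probe sets, both of which the annotation shares with *Vps25*, differed less. The brighter (mean 73.4) gave -0.19, -0.11 and -0.08, and the dimmer (mean 20.4) gave -0.23, 0.15 and 0.09. As this is bulk tissue, fewer cells of a type and less RNA per cell cannot be told apart, here or for any gene below.

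*Kdr* and *Flt1*, the main receptors of vascular endothelial growth factor, differed over the 3 sets by 0.25 (95% interval -0.15 to 0.64) and 0.07 (-0.19 to 0.33). *Tek*, the angiopoietin receptor, differed by 0.17 and *Eng* (endoglin, a co-receptor of the TGF-beta family) by 0.04. The interval of *Eng* was -0.41 to 0.49, and its intensity ran from 4.75 to 64.1 over the arrays.

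The differences of the barrier transporters had both signs, and none passed. *Slco1c1*, which carries thyroxine across the barrier, had 74.8, 99.2 and 53.4 in bitransgenic and 68.5, 45.2 and 44.4 in monotransgenic arrays of experiment 2. The groups overlapped, and the difference was 0.62 ± 0.22 (SE, adjusted p = 0.234, limma), the lowest p among the 27 genes in that experiment. Without the second bitransgenic array it was 0.39, and without the first monotransgenic array it was 0.83 with an adjusted p of 0.0379, the lowest over all alternatives, whose adjusted p reached 0.940. In set 1 *Slco1c1* had 104, 104 and 129 after removal, 79.4, 110 and 117 on the diet and 100, 114 and 83.1 in the monotransgenic arrays. In set 3 it had 96.8, 91.5 and 73.1 in bitransgenic and 71.4, 90.1 and 67.8 in monotransgenic arrays, again overlapping. The mean difference over the 3 sets was 0.34 ± 0.13 (95% interval 0.07 to 0.60, adjusted p = 0.274), and 0.19 without experiment 2.

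*Slc2a1*, the glucose transporter of the barrier, differed by -0.09 over the 3 sets, with 162 to 676 over the arrays, both ends lying in bitransgenic arrays of experiment 2. *Abcb1a*, the P-glycoprotein efflux pump, differed by -0.07 and *Slco1a4*, an organic anion transporter, by 0.06. Their 95% intervals were -0.31 to 0.17 and -0.18 to 0.30. *Slc38a5*, a glutamine transporter, had the lowest value of all 27 over the 3 sets, -0.41, with an interval of -0.96 to 0.14. In set 3 it had 41.0, 30.9 and 14.7 in bitransgenic and 83.6, 39.4 and 114 in monotransgenic arrays, and these overlapped.

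*Itm2a*, a membrane protein enriched in brain endothelium and also made by other cells, had the lowest p of the 27 genes over the 3 sets. It had 436, 369 and 382 after removal, against 305, 206 and 313 on the diet and 196, 279 and 275 in the monotransgenic arrays of set 1. In set 3 it had 566, 456 and 356 in bitransgenic and 203, 341 and 246 in monotransgenic arrays. The arrays with the transgene on thus lay above all others in sets 1 and 3. In experiment 2 it had 533, 381 and 594 in bitransgenic and 638, 476 and 222 in monotransgenic arrays, which overlapped.

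The mean of *Itm2a* was 395 ± 35.5 after removal and 249.98 ± 46.9 in the monotransgenic arrays of set 1, and 459 ± 105 in bitransgenic and 264 ± 70.7 in monotransgenic arrays of set 3 (SD, n = 3 each). The difference was 0.66 ± 0.29 in set 1 (adjusted p = 0.587, limma), 0.29 in experiment 2 and 0.79 ± 0.29 in set 3. After removal against the diet it was 0.54. Over the 3 sets it was 0.58 ± 0.17 (SE, 95% interval 0.22 to 0.93, adjusted p = 0.155). Leaving out experiment 2 gave 0.72 with an adjusted p of 0.0264, and 1.31% of all features passed in that fit. The adjusted p ran from 0.00194 to 0.405 over the alternatives. The dimmer *Itm2a* probe set (mean 39.5) differed by 0.17, 0.20 and 0.08 in set 1, experiment 2 and set 3, less than the brighter one in each. The mean of both gave 0.36 over the 3 sets.

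The remaining endothelial genes were a secreted factor, a regulator of nitric oxide synthase and 3 transcription factors. *Egfl7*, a secreted factor of endothelial cells, differed over the 3 sets by 0.04, and *Nostrin*, which controls the traffic of endothelial nitric oxide synthase, by -0.11. *Sox17* and *Sox18*, transcription factors of vessel development, differed by 0.08 and -0.25. *Foxq1*, a forkhead factor of brain endothelium, differed by 0.50 (95% interval 0.04 to 0.96, adjusted p = 0.382), with 238, 246 and 186 in bitransgenic and 92.8, 229 and 77.8 in monotransgenic arrays of set 3. The second monotransgenic array of set 3 lay among the bitransgenic ones. A dimmer *Foxq1* probe set differed by 0.22 in set 3, against 0.81 on the brighter one, by -0.19 in experiment 2, against 0.52, and by 0.04 over the 3 sets.

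**Figure D3:**
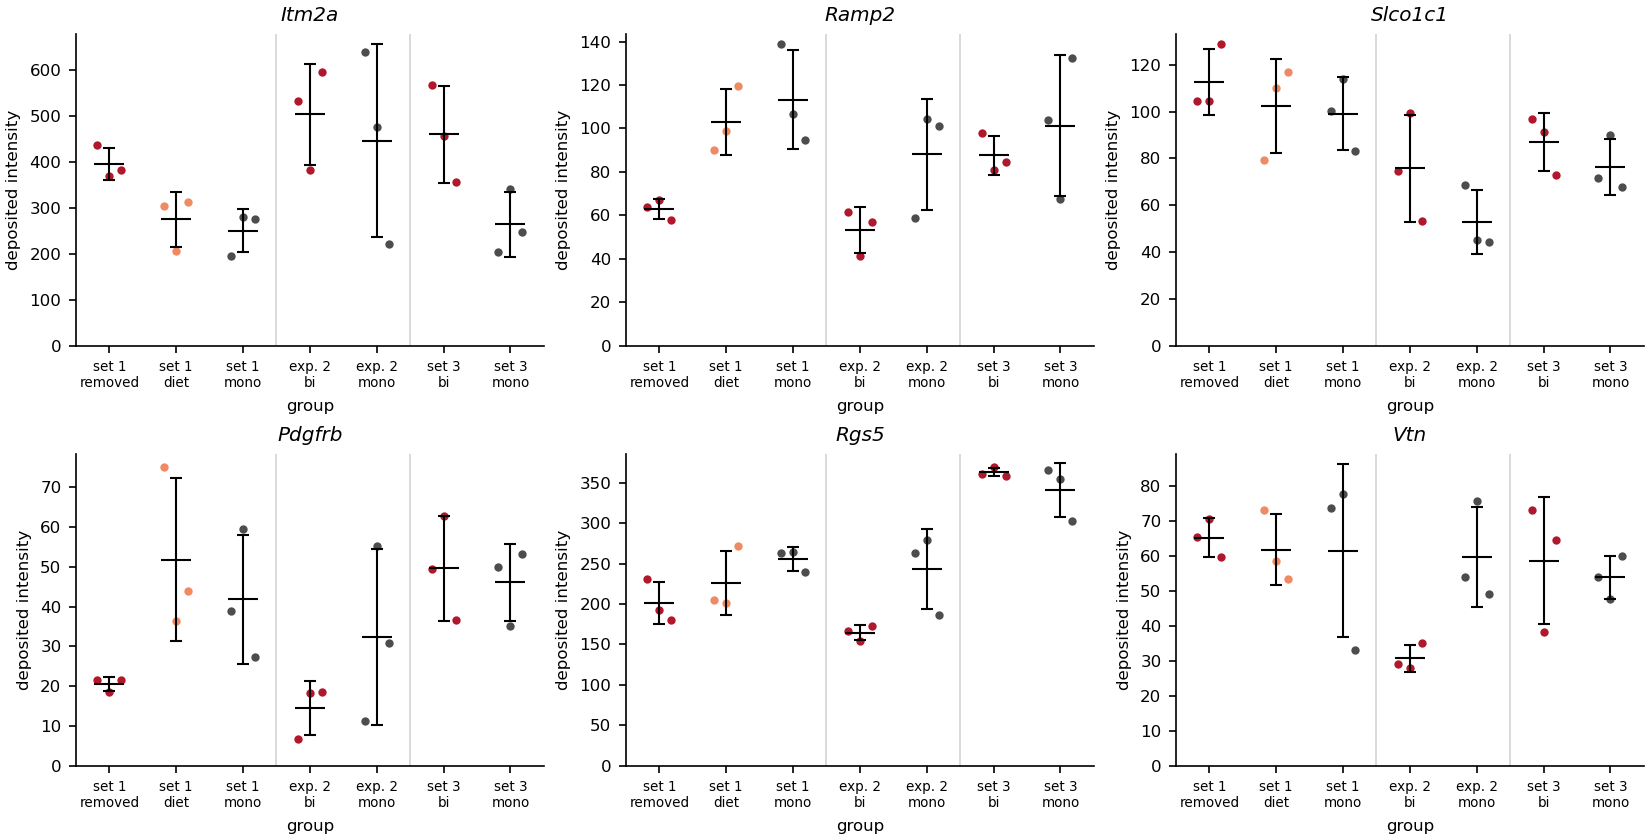
Deposited intensity (vertical axes from 0) of *Itm2a*, *Ramp2*, *Slco1c1*, *Pdgfrb*, *Rgs5* and *Vtn* on each array by group, with the mean and SD as bars (n = 3 per group; bi, bitransgenic; mono, monotransgenic). *Pdgfrb* had 18.5 to 21.6 after doxycycline removal, and *Rgs5* stood at 303 or more on all arrays of set 3.

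Among the mural genes, *Pdgfrb* had the lowest p after doxycycline removal against the diet, the comparison that switches the transgene within bitransgenic mice. Doxycycline itself also differs between these groups, so drug and transgene cannot be told apart in any comparison of removal with the diet. *Pdgfrb* codes for the PDGF receptor that recruits pericytes to vessels and is also made by fibroblasts. It had 21.5, 18.5 and 21.6 after removal, against 75.04, 36.5 and 43.9 on the diet and 38.9, 59.4 and 27.2 in the monotransgenic arrays. All 3 arrays after removal lay below the 6 others of set 1. The mean was 20.5 ± 1.75 after removal, 51.8 ± 20.5 on the diet and 41.8 ± 16.3 in the monotransgenic arrays (SD, n = 3 each). The difference was -0.82 ± 0.30 (SE) against the diet (adjusted p = 0.752, limma) and -0.61 ± 0.30 against the monotransgenic arrays (adjusted p = 0.655, limma), and -0.38 without the second monotransgenic array.

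In the other sets the groups overlapped. *Pdgfrb* had 6.72, 18.3 and 18.6 in bitransgenic and 11.2, 55.4 and 30.8 in monotransgenic arrays of experiment 2, and 49.6, 62.8 and 36.5 in bitransgenic and 50.04, 35.1 and 53.1 in monotransgenic arrays of set 3. The differences were -0.39 and 0.11. The second *Pdgfrb* probe set, with a mean of 6.55, carried little signal and differed by 0.06 after removal against the diet.

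*Rgs5* and *Vtn* were the mural genes nearest the threshold in experiment 2. *Rgs5*, a regulator of G-protein signalling that marks pericytes, had 166, 154 and 172 in bitransgenic and 264, 279 and 187 in monotransgenic arrays there. *Vtn* (vitronectin, a matrix protein made by brain pericytes) had 29.2, 27.9 and 34.98 in bitransgenic and 54.1, 75.8 and 49.2 in monotransgenic arrays. For both, each bitransgenic array lay below each monotransgenic one. After normalization only *Vtn* kept that separation. The dimmer *Vtn* probe set, with a mean of 11.4, differed the other way in experiment 2, by 0.64.

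The difference in experiment 2 was -0.43 ± 0.17 (SE) for *Rgs5* (adjusted p = 0.263, limma) and -0.50 ± 0.22 for *Vtn* (adjusted p = 0.318, limma). In set 1 *Vtn* had 65.4, 70.7 and 59.7 after removal and 73.9, 77.7 and 33.1 in monotransgenic arrays. The *Vtn* difference between the transgene on and monotransgenic arrays differed between experiment 2 and set 1 by -0.68 ± 0.32 (adjusted p = 0.620), and by -0.37 without the third monotransgenic array of set 1. The mean over the *Rgs5* probe sets above the filter differed by -0.19 in experiment 2. *Rgs5* ran from 303 to 369 in set 3 and from 154 to 279 in the other sets.

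*Acta2*, the smooth muscle actin of arterioles, had the lowest p on the diet against the monotransgenic arrays. It had 11.2, 38.6 and 32.9 on the diet and 93.4, 16.4 and 83.5 in the monotransgenic arrays, and 29.6, 35.6 and 30.2 after removal. The groups overlapped, as the second monotransgenic array was low. The difference was -0.78 ± 0.36 (SE, adjusted p = 1.00, limma), -1.33 without the second monotransgenic array, and -0.46 without either the first diet or the first monotransgenic array. In experiment 2 *Acta2* had 49.3, 18.7 and 20.6 in bitransgenic and 27.4, 57.7 and 26.0 in monotransgenic arrays, and in set 3 30.5, 50.1 and 31.8 in bitransgenic and 55.7, 34.9 and 37.4 in monotransgenic arrays. *Abcc9*, a subunit of the potassium channel of pericytes and smooth muscle, differed by 0.09 over the 3 sets.

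Markers of the meninges and of fibroblasts, cells that dissection can carry along and that share *Pdgfrb* and *Acta2* with mural cells, differed between some of the same groups. Of the 7 listed, 4 were measured above the filter. The summed intensity of all 7 was 77.3 to 120 after removal, 94.5 to 131 on the diet and 712 to 881 in the monotransgenic arrays of set 1. It was 113 to 167 in bitransgenic and 176 to 611 in monotransgenic arrays of experiment 2, and 89.2 to 211 in bitransgenic and 101 to 969 in monotransgenic arrays of set 3. *Ogn*, a small proteoglycan of the meninges, fell by 4.16 after removal against the monotransgenic arrays (adjusted p = 0.0341, limma), and *Lum*, a related proteoglycan, by 1.48 (adjusted p = 0.0494). On the diet against the monotransgenic arrays *Ogn* fell by 4.37 (adjusted p = 0.0393). *Ogn* alone had 556, 728 and 636 in the monotransgenic arrays of set 1 and so made up most of the sums there. Of the 4 tested markers, 3 were lower and 1 higher after removal against the monotransgenic arrays. Between removal and the diet, where *Pdgfrb* differed by -0.82, the summed levels of these markers overlapped and *Ogn* differed by 0.21. Their part in the mural values against monotransgenic arrays was not tested.

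**Figure D4:**
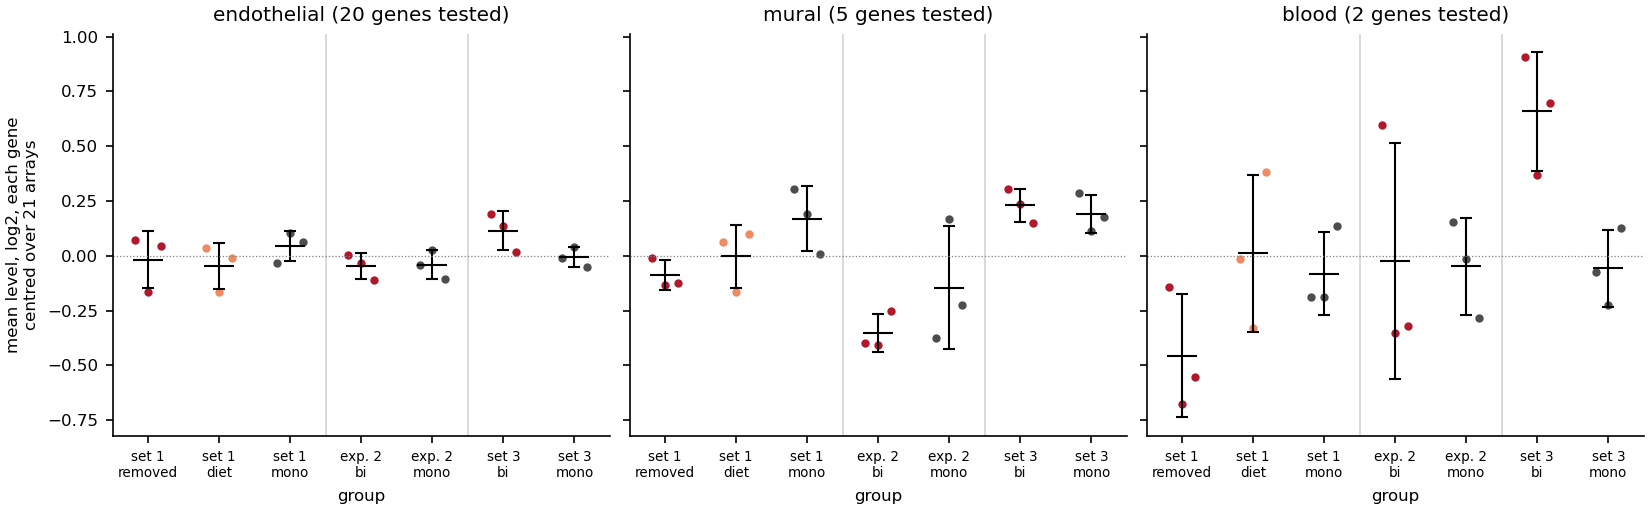
Mean log2 level of the tested genes of each class on each array, each gene centred on its mean over the 21 arrays, by group with mean and SD bars (n = 3 per group; bi, bitransgenic; mono, monotransgenic). Arrays ran from -0.17 to 0.19 for the endothelial, from -0.41 to 0.31 for the mural and from -0.68 to 0.91 for the blood genes, as means over 20, 5 and 2 genes, so the widths of these ranges are not compared.

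The alpha and beta globin probe sets correlated across arrays. Their probe sets cannot tell close copies apart: the alpha-globin probe set is annotated to *Hba-a1* and *Hba-a2*, and the beta-globin probe set to *Hbb-b1*, *Hbb-b2*, *Hbb-bs* and *Hbb-bt*. The alpha and beta genes lie on different chromosomes. Whether their promoters have any part in the correlation across arrays was not tested. The 150 bases before the start of 4 of these genes are described by their letters alone. They are from RefSeq on GRCm38.p6, written 5′ to 3′ on the strand of the gene. Capitals mark, on either strand, the CCAAT box common to many promoters, the CACCC box that erythroid Krüppel-like factor is known to bind in the beta-globin promoter, and the letters CATATAA, a form of the TATA box.
Hba-a1 (chr11:32283522-32283671, + strand): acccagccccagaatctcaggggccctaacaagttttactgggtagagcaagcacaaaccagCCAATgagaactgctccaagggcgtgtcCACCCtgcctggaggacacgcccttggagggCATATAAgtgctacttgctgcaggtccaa
Hba-a2 (chr11:32296342-32296491, + strand): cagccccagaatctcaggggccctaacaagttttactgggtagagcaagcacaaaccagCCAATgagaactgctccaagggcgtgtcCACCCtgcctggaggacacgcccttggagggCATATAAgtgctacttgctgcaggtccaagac
Hbb-bs (chr7:103827929-103828078, - strand): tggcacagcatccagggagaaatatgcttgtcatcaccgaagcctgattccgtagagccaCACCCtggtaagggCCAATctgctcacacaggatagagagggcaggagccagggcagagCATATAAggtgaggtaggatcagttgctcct
Hbb-bt (chr7:103813924-103814073, - strand): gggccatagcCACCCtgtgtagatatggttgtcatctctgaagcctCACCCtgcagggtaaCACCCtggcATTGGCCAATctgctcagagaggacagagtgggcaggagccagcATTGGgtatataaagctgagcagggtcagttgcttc

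The alpha pair was identical over the 147 aligned bases (100%), and the beta pair matched at 109 of 148 (73.6%). All 4 held the CCAAT and the CACCC letters. The exact CATATAA letters stood in all but *Hbb-bt*. The window of *Hbb-bt* held the letters tatataa, which differ from them only in the first letter and were not searched for. On *Hbb-bt* a reversed and a forward CCAAT box stood side by side with no overlap. Of 32851 mouse promoters of the same length, 24.5% held the CCAAT letters on either strand, 37.4% the CACCC letters and 1.24% the CATATAA letters. The first 2 are therefore common among all promoters. A match in a promoter is a description of its letters and not of a bound site.

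The bitransgenic group of set 3 had the highest mean of the 7 groups for both globins. Alpha-globin had 291, 216 and 262 in bitransgenic and 134, 130 and 159 in monotransgenic arrays of set 3. Beta-globin had 227, 136 and 171 in bitransgenic and 114, 89.0 and 127 in monotransgenic arrays. The groups did not overlap for either gene. The means were 256 ± 37.9 in bitransgenic and 141 ± 15.6 in monotransgenic arrays for alpha-globin, and 178 ± 46.3 in bitransgenic and 110 ± 19.4 in monotransgenic arrays for beta-globin (SD, n = 3 each). The differences were 0.81 ± 0.31 (SE) and 0.63 ± 0.21, each with an adjusted p of 1.00 (limma). The other alpha-globin probe sets were dimmer. Both of those annotated to the 2 gene copies differed the same way in set 3, by 0.60 (mean intensity 55.8) and 0.39 (mean 16.5), and the one annotated to *Hba-a1* alone, with a mean of 9.43, by -0.19.

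In set 1 the globins were lower after removal than on the diet in their means, without passing the test. Alpha-globin had 123, 51.5 and 76.0 after removal, 128, 84.5 and 177 on the diet and 115, 119 and 177 in the monotransgenic arrays. The first array after removal lay among the others and the other two below them all. Beta-globin had 87.6, 92.0 and 78.0 after removal, against 121, 106 and 153 on the diet, with no overlap, and 97.5, 90.6 and 109 in the monotransgenic arrays. The difference after removal against the diet was -0.52 for alpha-globin and -0.42 ± 0.21 (SE, adjusted p = 0.999, limma) for beta-globin, and against the monotransgenic arrays it was -0.62 and -0.13. On the diet against the monotransgenic arrays beta-globin differed by 0.29.

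In experiment 2 alpha-globin had 237, 65.3 and 86.5 in bitransgenic and 150.5, 142 and 144 in monotransgenic arrays. Beta-globin had 157, 92.0 and 88.7 in bitransgenic and 112, 120 and 74.8 in monotransgenic arrays. In each case the first bitransgenic array was the highest of the 6 and the groups overlapped. Over the 3 sets the difference was -0.01 (95% interval -0.39 to 0.37) for alpha-globin and 0.25 (adjusted p = 0.436) for beta-globin.

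The difference of alpha-globin between the transgene on and monotransgenic arrays was 1.43 ± 0.44 (SE) greater in set 3 than in set 1, and that of beta-globin 0.76 ± 0.30. For alpha-globin this ranked 35 of 12879 features by p, but its adjusted p was 1.00 (limma). Experiment 2 minus set 3 was -1.01 ± 0.44 for alpha-globin (adjusted p = 0.596) and -0.52 ± 0.24 for *Rgs5* (adjusted p = 0.603). *Sox17*, named as the gene of next lowest p after *Vtn* for experiment 2 minus set 1, gave 0.51 ± 0.36 (adjusted p = 0.767), and 0.31 to 0.86 when single arrays were left out.

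Across all 21 arrays alpha-globin and beta-globin correlated with Pearson's r of 0.727 (permutation p = 0.0002, adjusted p = 0.002) and Spearman's rho of 0.714 (permutation p = 0.00038, adjusted p = 0.0038). Without the 2 arrays farthest from the median of alpha-globin, r was 0.689. Within set 1 r was 0.598 (n = 9, permutation p = 0.0621, from random permutations). Within experiment 2 it was 0.498 (n = 6, exact permutation p = 0.294) and within set 3 0.936 (n = 6, exact permutation p = 0.00278). The within-set values include any difference between groups, and in set 3 the bitransgenic arrays formed its upper end. The pair was 1 of 10 among *Hba-a1*, *Hbb-b1*, *Cldn5*, *Pdgfrb* and *Acta2*, and the other 9 pairs had adjusted permutation p-values of 0.0786 or more for r. Arrays share a set, so they are not fully independent points.

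Other blood and vessel values in set 3 stood beside the globins as follows. Of the 7 leukocyte and platelet markers, 2 were above the filter, and the summed intensity of all 7 was 76.1 to 101 in bitransgenic and 53.4 to 99.97 in monotransgenic arrays of set 3. The mean centred level of the endothelial genes was 0.11 in bitransgenic and -0.01 in monotransgenic arrays of set 3, and that of the 2 globins was 0.66 and -0.06. *Alas2*, the marker of maturing red cells, had at most 6.75 in the bitransgenic arrays of set 3 and so gave no usable level. Markers of other cell types also differed between these groups, though none passed the test. All 6 dentate granule cell markers were lower in set 3 (median -0.36, 2 at an unadjusted p under 0.05, against 4.15% of all features). Their summed intensities were 11405 to 13088 in bitransgenic and 11376 to 17062 in monotransgenic arrays. All 6 microglial markers were higher in set 3 (median 0.11, 1 at that level), where 56.8% of all features were higher. Their sums were 1116 to 1307 in bitransgenic and 1059 to 1142 in monotransgenic arrays. After doxycycline removal against monotransgenic arrays all 6 granule cell markers were lower (median -0.51, 4 at that level, against 7.76% of all features). Their sums were 12451 to 14866 after removal and 15909 to 19227 in monotransgenic arrays. On the diet against the monotransgenic arrays 5 of the 6 were also lower (median -0.25). In experiment 2, 3 granule cell markers were higher and 3 lower (median -0.02), and 2 microglial markers were higher and 4 lower. The part of these cell types in the vessel and blood values was not tested. The labels do not say whether the animals were perfused, and the part of blood left in the vessels was not tested.

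**Figure D5:**
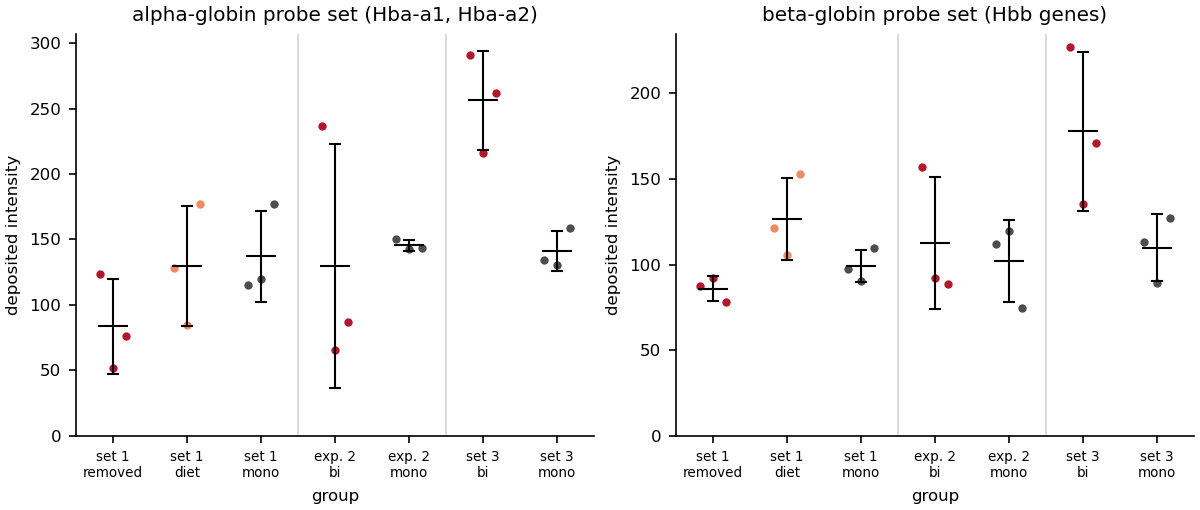
Deposited intensity (vertical axes from 0) of the alpha-globin and beta-globin probe sets on each array by group, with the mean and SD as bars (n = 3 per group; bi, bitransgenic; mono, monotransgenic). In set 3 the bitransgenic arrays sit at 216 to 291 for alpha-globin and 136 to 227 for beta-globin, above the monotransgenic arrays of that set.

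The spread between arrays of a group was larger in experiment 2. For 19 of the 27 genes the SD within groups was larger there, with a median of 0.44 on the log2 scale in experiment 2 and 0.27 in sets 1 and 3. The SEs and p-values above rest on a spread shared by all 21 arrays and do not carry this difference. The second bitransgenic array of experiment 2, which had the highest actin ratio, held the lowest deposited intensity of all 21 arrays for 8 of the 27 genes. These were *Ocln*, *Slc2a1*, *Slco1a4*, *Egfl7*, *Ramp2*, *Nostrin*, *Rgs5* and *Vtn*, and no gene was highest there before normalization. After normalization only *Ocln*, *Slc2a1* and *Ramp2* of these were lowest there, and *Flt1* and *Ly6c1* were highest there. The share of all features that were lowest on that array was not counted. Without that array the median difference of the 27 genes in experiment 2 was 0.06.

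Genes of the same pathways were read in 9 further lists, also chosen with earlier results of these data known. They lay outside the list, apart from the shared beta-globin probe set. None of their genes passed in any comparison. The ligands and co-receptors of the VEGF and angiopoietin system had 10 of 12 measured, 7 of them higher over the 3 sets, with a median of 0.14 against 0.01 for all features. *Vegfc*, a growth factor of lymphatic and blood vessels, differed by -0.56 (adjusted p = 0.256), and *Nrp2*, a co-receptor, by 0.27. Of the Wnt pathway that induces the barrier, 8 of 12 were measured, 6 higher, and *Reck*, part of the Wnt7 receptor complex, differed by 0.28 and *Lrp6*, a Wnt co-receptor, by -0.16. Further junction genes had 4 of 8 measured, 3 higher, and *Jam2*, a junctional adhesion molecule, differed by 0.21. All 9 of the further transporters were measured, 6 higher, with *Abcg2* and *Abcb1b*, both efflux pumps, at 0.22 and 0.26.

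Of the further pericyte and smooth muscle genes, 6 of 13 were measured, 2 higher and 4 lower. *Cald1* (caldesmon, an actin-binding protein of smooth muscle and other cells) came nearest to the threshold, at -0.31 ± 0.08 (SE, adjusted p = 0.0953, limma), and *Pdgfb*, the ligand of *Pdgfrb*, differed by 0.56 (adjusted p = 0.208). Of the endothelial transcription factors 5 of 9 were measured, 1 higher, with *Lmo2* and *Klf2* at -0.09 and -0.12. The activation genes had 3 of 8 measured, all 3 higher, with *Thbd* (thrombomodulin) at 0.10 and *Vcam1* (an adhesion molecule for leukocytes) at 0.09. The basement membrane genes had 5 of 8 measured, 3 higher, with the collagens *Col4a1* and *Col4a2* at -0.13 and 0.18. Of the erythroid genes 5 of 10 were measured, 4 higher, among them *Bpgm*, which makes the red cell regulator of haemoglobin's oxygen affinity, at 0.26 (adjusted p = 0.359). The 4 also include the beta-globin probe set already described, at 0.25, so this count is not separate from it.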

How the data were processed

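The deposited values were linear probe set intensities of Affymetrix mouse arrays, and the authors had scaled them so that the mean of each array, without the lowest and highest 2%, was 150, as read from the values; no source used here names the tool. Of 45101 probe sets the platform annotation gives 34945 a single gene, 932 several and 9160 none, and 64 are controls. Values were turned to log2(intensity + 16) and quantile-normalized, the upper 60% of probe sets by mean (27022) were kept, and the brightest probe set stood for each gene. Probe sets of several genes stayed in as joint features, since those of the globins are shared. limma 3.58.1 in R 4.3.3 fitted a mean per group over all 21 arrays (14 residual degrees of freedom, variance trend) with Benjamini-Hochberg adjustment over 12879 features. Permutation tests used scipy 1.17.1.

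The members, lists, tests and alternatives were chosen with earlier results of these data known. Full values went to members that passed, otherwise to the 3 of lowest p in each comparison (2 for differences between sets) and to *Cldn5*, *Pecam1*, *Pdgfrb*, *Acta2* and the globins; of further lists, the 2 of lowest p over the 3 sets were named. *Foxq1*, *Slc38a5*, array extremes and second probe sets were added after their values were seen. Alternatives were other pseudocounts, filters, scalings, probe set rules, array weights, variance prior, threshold and left-out arrays or sets. No detection calls were used, and 3 arrays a group limit the precision.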

Additional observations from a re-analysis of the deposited data

How the results depend on the processing

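No difference of the genes named for their lowest p in a comparison turned its sign under any alternative tried. This does not cover the other values given above. The median of the 27 genes in experiment 2 turned its sign without the second bitransgenic array of that experiment. With limma's array weights the count of the 27 genes that passed was 1 after doxycycline removal against monotransgenic arrays (*Ramp2*, -0.69, 2.01% of all features passing) and 4 over the 3 sets (*Ramp2*, *Sox18*, *Itm2a* and *Foxq1*, 10.7% of all features). Over the 3 sets the count was 1 without the 2 arrays of highest actin ratio (*Itm2a*, 0.74, 3.19%) and 1 without experiment 2. Leaving out each array in turn gave counts of 0 to 1 for experiment 2 and 0 to 1 over the 3 sets. The calls came without the first monotransgenic array of experiment 2 (*Slco1c1*, 5.05% of all features, and *Itm2a* over the sets, 0.69) and without the second monotransgenic array of set 3 (*Ramp2*, -0.46). The labels give no replicate numbers shared between groups, but some titles of set 3 share a prefix across the groups. With that prefix as a factor (replicate block), 0 genes passed in set 3, and beta-globin differed by 0.82, alpha-globin by 0.89 and *Itm2a* by 0.63 (adjusted p = 0.798 each, limma). For set 1 and experiment 2 no paired analysis was possible because the labels give nothing to pair on. Over all features the counts moved more: removal against monotransgenic arrays gave 9 calls, 330 on the arrays of set 1 alone and 259 with array weights, and the mean over the sets 9, and 1378 with array weights. On the deposited scale the median of the 27 genes in experiment 2 was -0.25. The causes were not tested. Groups of 3 arrays and dim probe sets such as *Pecam1* limit what could be seen.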
